A study of Rattus norvegicus with 288 samples.

Results

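F13a1 encodes the A chain of coagulation factor XIII, the transglutaminase that cross-links fibrin once thrombin has activated it. The transcript is known from resident and alternatively activated macrophages, from monocytes and from megakaryocytes, which hand the protein on to platelets. The B chain, which carries the A chain in plasma, comes from hepatocytes, so a tissue can hold much A chain transcript without holding the other coagulation factors. Macrophages depend on the receptor for colony stimulating factor 1, the product of Csf1r, and human monocytes that mature in the presence of interleukin 4 are known to raise F13a1.

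F13a1 was followed as 1 gene of the 14218 genes measured, through the 2 probe sets that the array annotation assigns to it. It was selected on earlier results of these arrays, and which of its measured values led to the choice is not recorded. Its levels and its changes after each drug alone are therefore given as a description with no test. The changes in rats that received temsirolimus together with an oral drug carry a test. Each shares no array with the change after the same drug alone, but some of its arrays also serve in the untested comparison of another drug. All arrays of a tissue share 1 estimate of the spread. The tested values may also have been seen when the gene was picked, so the p-values are not independent support.

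The data were Affymetrix arrays of bone marrow, heart and liver from 96 male Sprague Dawley rats of about 7 to 8 weeks, fitted with a femoral vein cannula, 4 rats for each of 8 treatments at 1, 6 and 24 h. An intravenous dose came first, either temsirolimus at 0.3 mg/kg, an inhibitor of the kinase mTOR, or its vehicle (TEM vehicle). An oral dose followed, which was sorafenib at 25 mg/kg, its vehicle F68/PG/PEG400, sunitinib at 5 mg/kg, or its vehicle sterile water. Sorafenib and sunitinib both inhibit several receptor tyrosine kinases. The 8 treatments were temsirolimus with sorafenib, sorafenib alone, temsirolimus with sunitinib, sunitinib alone, temsirolimus with either oral vehicle, and TEM vehicle with either oral vehicle, so that every control rat was also dosed by both routes. Each rat was killed at 1 time only and gave all 3 tissues, and the rat is the replicate. Values are log2 signals, on which a difference of 1 is a doubling, and p-values measure the spread between these rats.

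The tissues carried their own markers. The mean level of 11 cardiac muscle genes had a median of 13.84 in heart arrays, against 5.07 in bone marrow and 5.87 in liver, and 14 hepatocyte genes had a median of 14.40 in liver. Hepatocyte genes varied in the heart, with a lowest level of 5.70, a median of 6.14 and a highest of 13.93. The highest was the heart array of rat 6M68 (temsirolimus with sorafenib, 1 h), against 14.01 to 14.49 in liver arrays. The heart array of rat 4M46 (temsirolimus with F68/PG/PEG400, 6 h) had T and NK cell genes at 8.45, where the other heart arrays lay between 6.57 and 7.40. Resident macrophage genes stood at 9.28 in rat 4M46 and at 9.07 in rat 6M68, where the 94 remaining heart arrays lay between 7.05 and 8.65. Neither array belongs to a group at 24 h. In the heart at 24 h hepatocyte genes still reached 11.86 after temsirolimus with F68/PG/PEG400 and 9.69 after temsirolimus with sorafenib. A bone marrow array of rat 4M45 and liver arrays of rats 4M48 and 7M78 also stood apart. The paper lists those of 4M45 and 4M48 as potential outliers on quality measures. The 3' to 5' signal ratio of the actin controls, a sign of RNA integrity, reached 25.24 and 9.59 in their groups. The array of 7M78 had resident macrophage genes at 8.59, where 94 other liver arrays lay between 9.40 and 10.71.

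The gene lies on chromosome 17 of the rat. Its promoter is shown for context, since genes of myeloid cells are commonly bound by factors of the ETS family near their starts. The RefSeq window on GRCr8, plus strand, chr17:28020947-28021246, holds 300 bases around the annotated start. It is printed with 1 match to GAGGAAGT, a core of the kind bound by the ETS factor PU.1, in capitals. The motif was chosen after the sequence had been read.

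F13a1 promoter: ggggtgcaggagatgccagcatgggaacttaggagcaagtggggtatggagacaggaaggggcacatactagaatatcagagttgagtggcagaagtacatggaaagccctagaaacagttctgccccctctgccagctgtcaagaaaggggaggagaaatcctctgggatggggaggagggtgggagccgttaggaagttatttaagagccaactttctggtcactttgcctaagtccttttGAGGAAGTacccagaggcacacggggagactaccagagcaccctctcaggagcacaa

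The match begins at base 244 of the window, 7 bases before the annotated start, and spans it. GAGGAAGT or its reverse complement stood in 810 of 33469 rat promoter windows of the same length (2.42%), and in 0 of the 14 windows found for the resident macrophage genes measured here. A match is a string of letters and not a binding site.

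F13a1 was high in bone marrow, intermediate in heart and low in liver. Over 96 arrays each, probe set 1374779_at averaged 10.84 ± 0.32 (SD) in bone marrow and 8.03 ± 0.64 in heart. Probe set 1369724_at averaged 5.90 ± 0.16 in liver, 7.11 in heart and 10.15 in bone marrow. The tissue order did not follow the macrophage genes, whose median level was 9.82 in liver, 8.83 in bone marrow and 8.25 in heart. Megakaryocyte and platelet genes stood at 11.19 in bone marrow, against 7.04 in heart and 7.11 in liver. In bulk tissue, fewer cells of a type and less RNA per cell cannot be told apart. For each tissue the probe set with the higher mean was used, which was 1374779_at in bone marrow and heart and 1369724_at in liver. The 2 probe sets moved together over the 96 arrays of bone marrow (r = 0.71) and heart (r = 0.87), and hardly in liver (r = 0.20), where 1374779_at averaged 5.01.

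**Figure D1:**
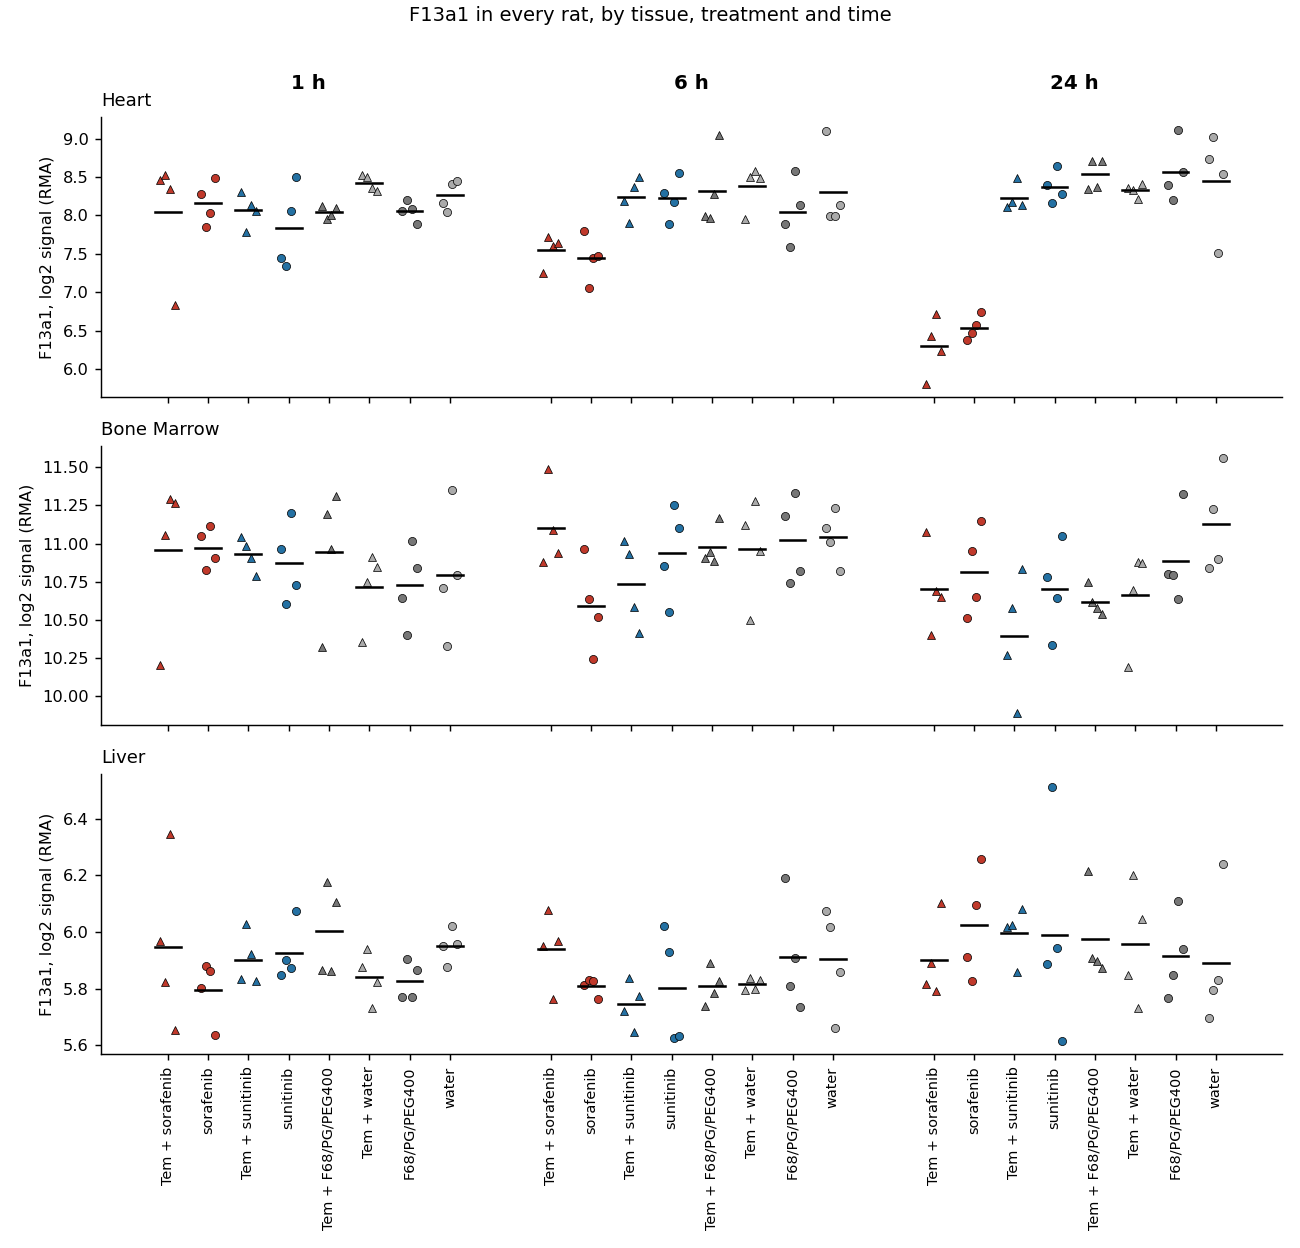
F13a1 log2 signal (y axes, which differ between panels) in each rat (points) by treatment and time (x axis), in heart, bone marrow and liver; bars are means of 4 rats, triangles are rats given temsirolimus and circles rats given its vehicle. The 8 heart arrays of sorafenib rats at 24 h lie between 5.81 and 6.75, below every other heart array (the next is 6.84, at 1 h).

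The heart had the widest range. Its 24 group means ran between 6.30 and 8.57, a span of 2.27, against 0.74 in bone marrow (10.39 to 11.13) and 0.28 in liver (5.75 to 6.02). The lowest heart mean was temsirolimus with sorafenib at 24 h (6.30 ± 0.38, SD, n = 4), followed by sorafenib alone at 24 h (6.54 ± 0.16), sorafenib alone at 6 h (7.45 ± 0.30) and temsirolimus with sorafenib at 6 h (7.55 ± 0.21). The other 20 heart groups had means between 7.84 (sunitinib alone at 1 h) and 8.57 (both vehicles, F68/PG/PEG400, at 24 h). Of the 23 steps between neighbours in that order, 1 was larger than the larger SD of its pair, the step of 0.90 that set the sorafenib groups at 24 h below all others. The remaining neighbours in the heart did not differ beyond their spread, and nor did any neighbours among the 24 groups of bone marrow or of liver. Sorting the means makes neighbours lie close in any case, so this says nothing about groups further apart. In bone marrow the highest mean was that of both vehicles with sterile water at 24 h (11.13 ± 0.33) and the lowest was temsirolimus with sunitinib at 24 h (10.39 ± 0.41). In liver the highest was sorafenib alone at 24 h (6.02 ± 0.19) and the lowest temsirolimus with sunitinib at 6 h (5.75 ± 0.08).

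F13a1 fell in the heart 24 h after sorafenib given with temsirolimus. The 4 rats given temsirolimus with sorafenib had 5.81, 6.43, 6.72 and 6.23, against 8.34, 8.71, 8.37 and 8.71 in rats given temsirolimus with F68/PG/PEG400. The highest sorafenib rat lay well below the lowest vehicle rat. The change was -2.23 ± 0.23 (SE) on the log2 scale, 4.70-fold lower (limma, Benjamini-Hochberg adjusted p = 3.78e-11), and of the 14218 genes F13a1 fell the most. After it came Aif1, a marker of macrophages and microglia, and Fcmr, the receptor for IgM, each at -1.66. In all, 105 genes fell (0.739%) and 17 rose (0.12%) in that comparison.

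The second probe set gave a smaller fall in the same direction. It read 6.24, 6.53, 6.28 and 6.32 after temsirolimus with sorafenib, against 7.18, 7.51, 7.15 and 7.27 after temsirolimus with F68/PG/PEG400. That is a change of -0.94 ± 0.14 (adjusted p = 5.57e-06), so the direction is shared by both probe sets while the fold is not. Within the lower-numbered and the higher-numbered rats, 2 of each group, the change on 1374779_at was -2.41 and -2.06. With any 1 of the 8 arrays left out it lay between -2.34 and -2.11.

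Sorafenib alone showed a fall of like size at 24 h, given here as a description. The rats had 6.38, 6.47, 6.58 and 6.75 after sorafenib, against 8.40, 8.21, 9.11 and 8.56 after TEM vehicle with F68/PG/PEG400. The difference was -2.03 ± 0.23 on 1374779_at, and -1.06 on 1369724_at. The effect with temsirolimus minus the effect alone was -0.21 ± 0.32, with an interval of -0.84 to 0.42. Temsirolimus with sorafenib against both vehicles came to -2.27 ± 0.23.

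**Figure D2:**
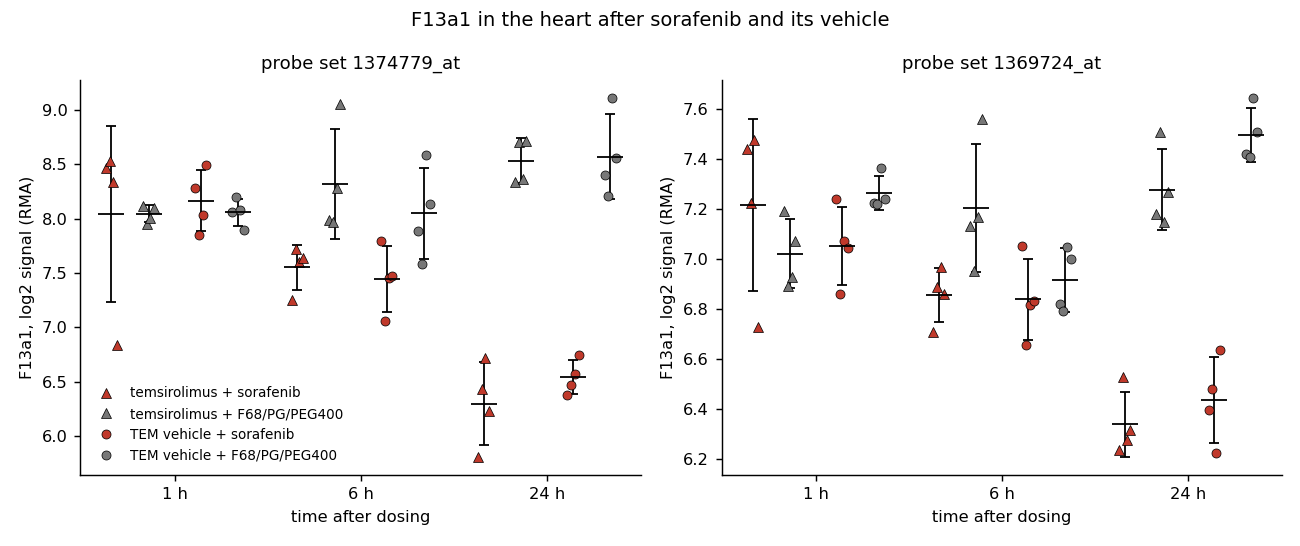
F13a1 log2 signal in the heart (y axis) by time (x axis) on each probe set, with points for rats, horizontal bars for means and error bars for SD (n = 4), sorafenib groups left of their vehicle groups. The groups overlap at 1 h and separate fully at 24 h on both probe sets.

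At 6 h the change was smaller, and its call depended on which rats were included. Rats given temsirolimus with sorafenib had 7.25, 7.72, 7.61 and 7.64, against 7.99, 7.97, 8.28 and 9.05 after temsirolimus with F68/PG/PEG400. The groups did not overlap, and the change was -0.77 ± 0.23, with a limma adjusted p of 0.0519 that missed the threshold of 0.05. The value of 9.05 is rat 4M46, whose T and NK cell and macrophage genes were high as given above; their part in the result was not tested. Without that array the change was -0.58 (adjusted p = 0.578), and without any 1 of 4 others (rats 4M39, 4M40, 4M45 and 6M64) it passed, with a lowest adjusted p of 0.0231. On the second probe set the groups overlapped, and the change was -0.35 ± 0.14 (adjusted p = 0.169). Sorafenib alone at 6 h gave 7.80, 7.06, 7.45 and 7.47, against 7.89, 7.58, 8.58 and 8.13 after TEM vehicle with F68/PG/PEG400, an overlapping pair of groups that differed by -0.60 ± 0.23 on 1374779_at and by -0.076 on 1369724_at.

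At 1 h no fall was seen. Temsirolimus with sorafenib gave 8.47, 8.53, 8.34 and 6.84, against 8.12, 7.95, 8.01 and 8.10 after temsirolimus with F68/PG/PEG400. The low value belongs to rat 6M68, the heart array with the hepatocyte genes at 13.93, whose part in the result was not tested. The change was -0.0036 ± 0.23 with that array (limma adjusted p = 0.996), and 0.42 without it (adjusted p = 1.00). Sorafenib alone gave 8.28, 7.85, 8.04 and 8.49, against 8.06, 8.20, 8.08 and 7.89 in its vehicle rats, a difference of 0.11 ± 0.23.

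The effect of sorafenib with temsirolimus in the heart was tested between times, a comparison added after the values were seen. It was lower at 24 h than at 1 h by -2.23 ± 0.32 (limma adjusted p = 2.39e-06), in a comparison where 106 genes were called (0.746%). Without the heart array of rat 6M68 that difference was -2.66. The group given sorafenib averaged 8.04 at 1 h and 6.30 at 24 h. Its vehicle group averaged 8.05 and 8.53, so part of the difference is a higher vehicle mean at 24 h. The difference between 24 h and 6 h was -1.46 ± 0.32 and missed the threshold (adjusted p = 0.143), and without the heart array of rat 4M46 it was -1.65 (adjusted p = 0.0244). The difference between 6 h and 1 h was -0.77 (adjusted p = 0.184), and without rat 6M68 it was -1.19 (adjusted p = 0.0229).

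The fall was not seen in the other tissues of the same rats. In bone marrow at 24 h, temsirolimus with sorafenib gave 11.07, 10.40, 10.69 and 10.65, against 10.75, 10.61, 10.58 and 10.54 after temsirolimus with F68/PG/PEG400, a change of 0.09 ± 0.20. In liver the change was -0.07, with an interval of -0.30 to 0.16. Liver F13a1 was low, at 5.90 on average where array medians lay between 6.82 and 6.96. A fall there could therefore hardly have shown, and the liver values do not tell whether the heart differs from it. Which arrays were normalized together is not known, but a shift shared by a tissue's arrays cancels in what follows. On probe set 1374779_at, F13a1 in the heart minus F13a1 in the bone marrow of the same rat averaged -4.41 ± 0.61 after temsirolimus with sorafenib and -2.09 ± 0.27 after temsirolimus with F68/PG/PEG400 (SD, n = 4 each). The difference of -2.32 had a two-sided exact permutation p of 0.0286, the smallest that 4 rats against 4 can give. The heart values of these groups did not overlap and bone marrow changed little. This p was therefore largely fixed by the heart values and is not separate support. Heart minus liver averaged 1.21 ± 0.45 after temsirolimus with sorafenib and 3.37 ± 0.17 after temsirolimus with F68/PG/PEG400, and the difference of -2.16 had the same exact p of 0.0286. On this probe set liver F13a1 averaged 5.01, above only 7.95% of genes. The difference from liver therefore mostly restates the heart fall, and its p is not separate support. The vehicle group also includes the liver array of rat 4M48, which stood apart.

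Sunitinib values in the heart are given beside these without a comparison, because the 2 oral drugs were given at different doses. At 24 h the rats had 8.10, 8.18, 8.49 and 8.14 after temsirolimus with sunitinib, against 8.36, 8.33, 8.22 and 8.41 after temsirolimus with sterile water. The change was -0.10 ± 0.23, with an interval of -0.55 to 0.34 (limma adjusted p = 1.00). Sunitinib alone gave 8.40, 8.16, 8.64 and 8.28, against 8.74, 9.02, 7.51 and 8.54 after TEM vehicle with sterile water, a difference of -0.08. At 1 h the changes were -0.35 with temsirolimus and -0.43 alone, and at 6 h they were -0.14 and -0.08.

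Across the 3 tissues, 3 times and 3 kinds of comparison that involve both classes of drug (sorafenib or sunitinib in rats given temsirolimus, and temsirolimus in rats given an oral drug), 27 tests of F13a1 were made and 1 passed, the sorafenib fall in the heart at 24 h. Over all genes 5156 of 383886 tests passed (1.34%), so the count of calls says little about F13a1. Leaving out the heart sorafenib values at 6 and 24 h, the other 25 changes lay between -0.35 and 0.21 and the smallest adjusted p was 0.656. Exact permutation over rats gave p = 0.0286 for 3 comparisons, all in the heart: sorafenib at 6 h and at 24 h, and sunitinib at 1 h. Adjusted over the 27 tests these came to 0.257, since 4 rats against 4 cannot give less than 0.0286.

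**Figure D3:**
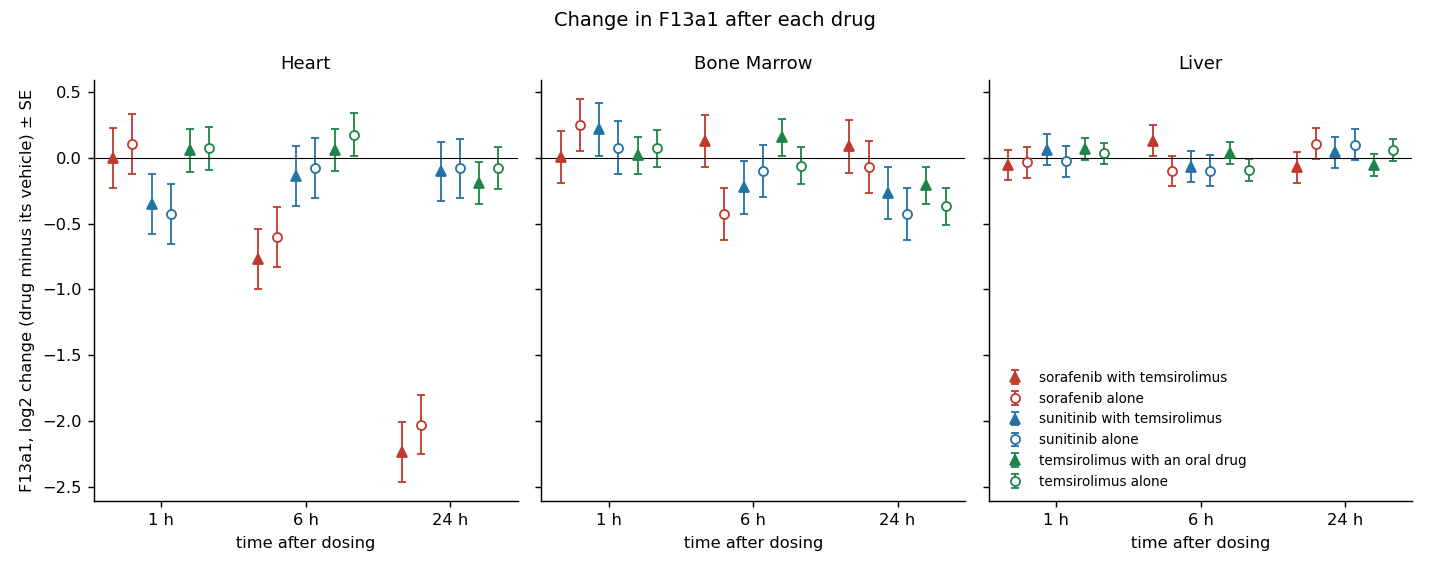
Log2 change in F13a1, drug minus its vehicle (y axis), with SE bars, by time (x axis) in heart, bone marrow and liver; filled triangles are changes with the other class of drug on board and open circles are changes with 1 drug alone. The 2 sorafenib changes in the heart at 24 h, -2.23 and -2.03, lie far below the rest.

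In bone marrow none of the tested changes passed, and they lay between -0.27 and 0.21. At 6 h sorafenib alone differed from its vehicle by -0.43 ± 0.20, a description, in groups that overlapped. On 1369724_at the means of those groups were 9.97 and 10.33. Sorafenib with temsirolimus changed by 0.12 ± 0.20 at 6 h. Rats given temsirolimus with sorafenib lay 0.51 ± 0.20 above rats given sorafenib alone at that time, also a description. At 24 h F13a1 after temsirolimus alone differed from TEM vehicle by -0.37 ± 0.14 (8 rats against 8), a description, and temsirolimus in rats given an oral drug gave -0.21 ± 0.14 (limma adjusted p = 0.902). Sunitinib at 24 h gave -0.27 ± 0.20 with temsirolimus (adjusted p = 1.00) and -0.43 ± 0.20 alone. The largest gap was between temsirolimus with sunitinib (10.27, 10.58, 9.89 and 10.83) and both vehicles with sterile water (10.84, 11.23, 10.90 and 11.56), 2 groups that did not overlap and differed by -0.74 ± 0.20. That vehicle group was also the highest of the 24 in bone marrow. Its arrays of rats 1M5 (10.90) and 1M6 (11.56) are among 8 bone marrow arrays labelled N2, a mark the labels do not explain. The same arrays are in the references of the sunitinib-alone and temsirolimus-alone differences. The part of that label in the gap was not tested. Of 13 megakaryocyte and platelet genes 0 were called at 24 h for temsirolimus in rats given an oral drug, where 0.724% of all genes were called, so nothing is read from that count. Their median change was -0.21, against -0.0042 over all genes. Their median difference after temsirolimus alone was -0.30.

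Liver F13a1 was low, and none of its changes passed the test. The 9 tested changes lay between -0.07 and 0.13, and the 9 after 1 drug alone between -0.10 and 0.11. The oral vehicles themselves, F68/PG/PEG400 minus sterile water, differed by -0.12 to 0.16 in liver, by -0.24 to 0.23 in bone marrow and by -0.38 to 0.20 in heart, which is the size of most drug differences above. In vehicle rats, heart F13a1 was higher at 24 h than at 1 h by 0.35 ± 0.16.

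The heart fall came with falls of other macrophage genes. Of 15 resident macrophage genes measured, 11 fell at 24 h after temsirolimus with sorafenib and 0 rose, with a median change of -1.01, against -0.05 over all genes, of which 0.739% fell. Mrc1, the mannose receptor, averaged 7.77 ± 0.35 after temsirolimus with sorafenib and 9.31 ± 0.19 after temsirolimus with F68/PG/PEG400, a change of -1.54. Lyve1, a hyaluronan receptor of resident macrophages and lymphatic vessels, averaged 8.14 ± 0.14 after temsirolimus with sorafenib and 9.66 ± 0.28 after temsirolimus with F68/PG/PEG400, a change of -1.52. C1qa, a chain of complement C1q, fell by 1.45 and C1qb by 1.37 on the log2 scale.

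Csf1r, on which macrophages depend for survival, averaged 8.24 ± 0.19 after temsirolimus with sorafenib and 9.25 ± 0.18 after temsirolimus with F68/PG/PEG400, a change of -1.01 (limma adjusted p = 8.48e-08). Cd163, the haemoglobin scavenger receptor, fell by 1.13 on the log2 scale (adjusted p = 0.00255). Cd68, a lysosomal protein of macrophages, was among the 4 genes not called, at -0.63 (adjusted p = 0.0963). After sorafenib alone the 15 genes had a median difference of -0.86. After temsirolimus with sunitinib the median was 0.03. The mean level of the 15 genes lay between 7.05 and 7.50 in the 4 rats given temsirolimus with sorafenib and between 8.14 and 8.52 in the 4 given temsirolimus with F68/PG/PEG400.

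**Figure D4:**
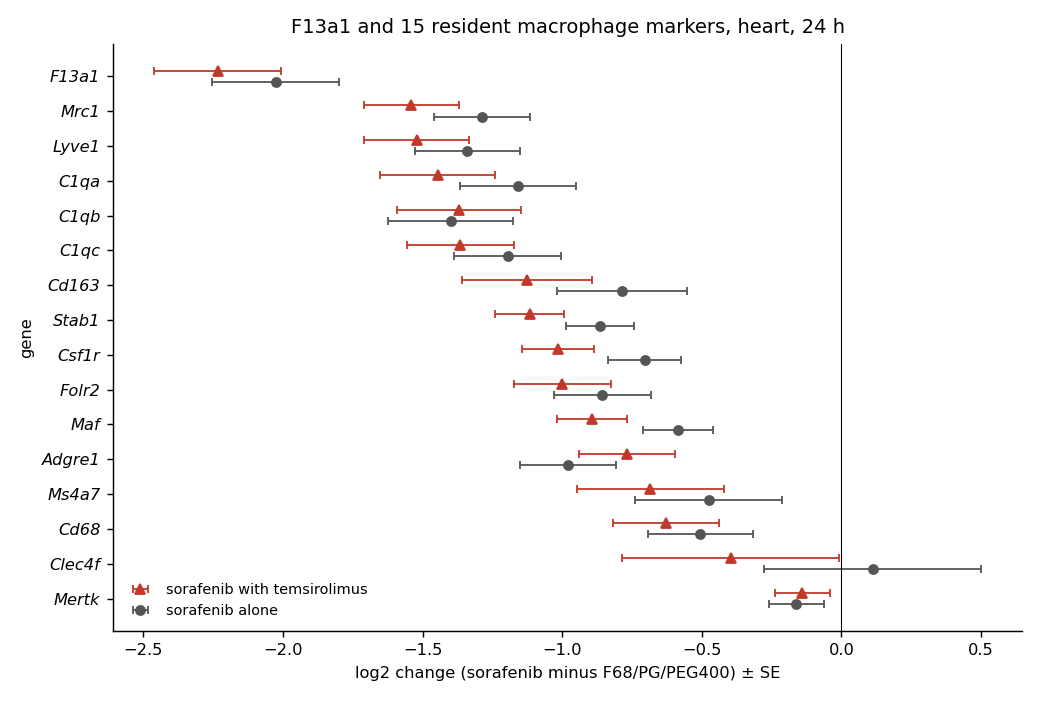
Log2 change in the heart at 24 h, sorafenib minus F68/PG/PEG400 (x axis), with SE bars, for F13a1 and 15 resident macrophage genes (y axis), with temsirolimus (triangles) and without it (circles). F13a1 lies furthest to the left, Mrc1 follows at -1.54, and Mertk lies near 0.

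The lists of other cell types are set against the same shares in the heart at 24 h, 0.739% of all genes having fallen and 0.12% having risen. At those shares a list of this size would be likely to hold no called gene, so nothing is read from a count of 0. Of 14 monocyte and dendritic cell genes 0 were called at 24 h (median -0.20), and of 13 megakaryocyte and platelet genes 0 (median -0.04), where Pf4, platelet factor 4, changed by -0.22 and Itga2b, the platelet integrin chain, by 0.06. Of 10 endothelial genes 1 fell, Kdr, a receptor for vascular endothelial growth factor, at -0.62. The neutrophil, erythroid, hepatocyte, cardiac muscle, adipocyte and T and NK cell lists had 0 members called. Hepatocyte genes averaged 7.49 (5.86 to 9.69) after temsirolimus with sorafenib and 7.52 (6.01 to 11.86) after temsirolimus with F68/PG/PEG400. With their level as a covariate the F13a1 change was -2.24. After sorafenib alone they averaged 7.21 (5.99 to 8.67), against 6.16 (5.92 to 6.36) after TEM vehicle with F68/PG/PEG400, and their part in that difference was not tested. The ratio of 3' to 5' signal of the actin controls, a sign of RNA integrity, averaged 1.52 (1.41 to 1.68) after temsirolimus with sorafenib and 1.89 (1.70 to 2.24) after temsirolimus with F68/PG/PEG400, and its part in the result was not tested.

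Genes tied to the work of factor XIII were read against the same 0.739% and 0.12%, and again a count of 0 says little. Of 25 coagulation and fibrinolysis genes 0 were called in the heart at 24 h (median -0.23), of 9 factor XIII substrates 0 (median -0.12) and of 6 transglutaminase genes 0 (median -0.07). Per rat, coagulation genes averaged 6.59 to 7.91 after temsirolimus with sorafenib and 6.59 to 9.31 after temsirolimus with F68/PG/PEG400. Substrates averaged 7.095 to 9.21 and 7.33 to 10.63. Fga, Fgb and Fgg are on both lists and on the hepatocyte list. The part of the varying hepatocyte level in these medians was not tested. Tgm2, the tissue transglutaminase, averaged 11.59 ± 0.15 after temsirolimus with sorafenib and 11.61 ± 0.12 after temsirolimus with F68/PG/PEG400. F13b was not measured here. Of 14 interleukin 4 response genes 3 fell: Mrc1, Clec10a, a C-type lectin of alternatively activated macrophages, at -0.80, and Ccl24, a chemokine for eosinophils, at -0.78. That count was 1 without the heart array of rat 6M72 or of rat 4M48. Of 10 genes of the Csf1 axis 1 fell, Csf1r, while Csf1, its ligand, changed by 0.07. Mrc1 and Csf1r are also on the resident macrophage list, so these counts are not separate from the macrophage count.

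At 6 h, 7 of 15 resident macrophage genes fell after temsirolimus with sorafenib (median -0.58), where 1.77% of all genes fell. C1qa changed by -0.95, C1qb by -0.95, C1qc by -0.92 and Lyve1 by -0.87. Without the array of rat 4M46 1 of 15 was called, and without that of rat 4M40 or 4M45 11 were. At 24 h the count lay between 9 and 12 with any 1 array left out. In bone marrow at 24 h 1 of 15 fell, Stab1, a scavenger receptor, at -0.63 (1.09% of all genes fell, median of the 15 0.02), and in liver 1 of 15, Lyve1 at -0.77 (0.0914% of all genes fell, median -0.11).

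The genes whose group means followed F13a1 most closely in the heart were Fcmr (r = 0.959), Alox5, which makes leukotrienes (r = 0.949), Folr2, a folate receptor of resident macrophages (r = 0.937), Csf1r (r = 0.928) and Cybb, a subunit of the phagocyte NADPH oxidase (r = 0.925), over 24 groups from the same arrays. The median r of the 15 resident macrophage genes was 0.893, against 0.035 over all genes compared. That likeness was weaker without the sorafenib groups. The mean level of the resident macrophage genes correlated with F13a1 at r = 0.929 over the 24 groups and at 0.377 over the 20 groups without sorafenib at 6 and 24 h. Those 20 groups include the arrays of rats 6M68 and 4M46. In 6M68 the macrophage genes stood at 9.07 and F13a1 at 6.84, and in 4M46 at 9.28 and 9.05. The part of these arrays in r was not tested. From rat to rat within groups (96 arrays, after group means and the set of rat numbers were subtracted), the genes closest to F13a1 in the heart were Ubn2 (r = 0.703), Pmp22, Tmod2, S100a10 and Slc66a3 (r = 0.669). None of them is on the macrophage list, whose median r was 0.313, against 0.066 over all genes compared. The 96 arrays include that of rat 6M68, with F13a1 at 6.84 where the rest of its group had 8.34 to 8.53. Its part in this ranking was not tested.

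Bone marrow gave different company. Rab27b, a small GTPase of platelet granule secretion, led over group means (r = 0.917) and over rats within groups (r = 0.779). Daam1 (r = 0.812), Rabgap1l, Prkaa2 and Tpd52l1 followed over group means. F5, coagulation factor V, which megakaryocytes store, followed Rgs10 and Inka1 within groups (r = 0.629). The mean level of the megakaryocyte and platelet genes correlated with F13a1 at r = 0.659 over the 24 bone marrow groups and at 0.643 over the 20 without sorafenib at 6 and 24 h, while the resident macrophage genes correlated at -0.10. In liver, where F13a1 was dim, the closest over group means were Prkar1b (r = 0.838) and Tgm4 (r = 0.824), a prostate transglutaminase.

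**Figure D5:**
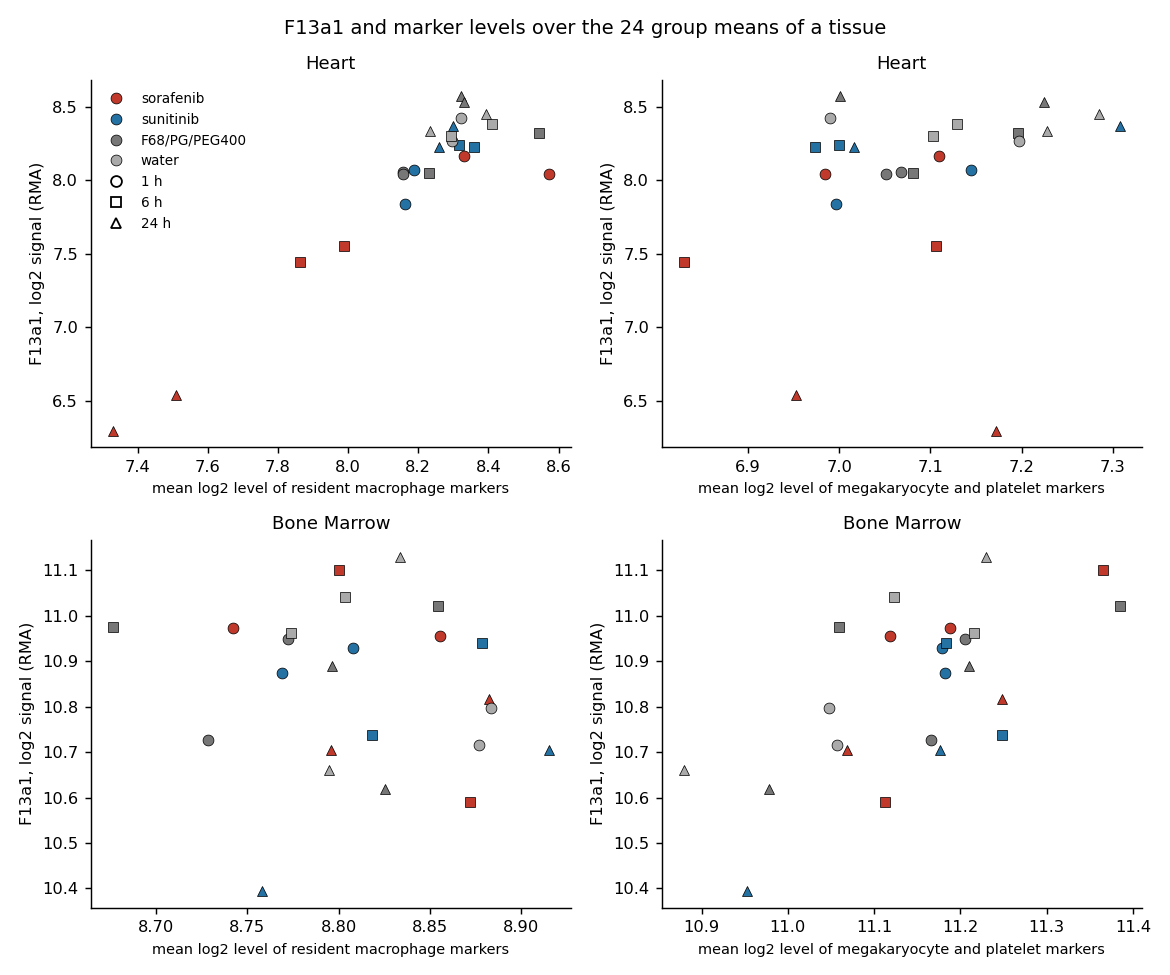
F13a1 log2 signal (y axis) against the mean log2 level of resident macrophage genes (left) and of megakaryocyte and platelet genes (right) for the 24 group means of heart (top) and bone marrow (bottom); colours mark the oral dose and shapes the time. In the heart the 4 sorafenib groups at 6 and 24 h lie at the low end of both F13a1 and the macrophage genes, and in bone marrow F13a1 follows the megakaryocyte genes (r = 0.659).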

How the data were processed

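RNA from each tissue was run by the authors on Affymetrix rat genome arrays, and the deposited values are log2 signals per probe set after RMA (background correction, quantile normalization and median polish). Which arrays were normalized together is not given in the sources used here. RMA compresses low signals, so a fall towards background is understated. Of 31099 probe sets, 20832 had 1 gene symbol, 436 several and 9831 none. A gene was the single-symbol probe set with the highest mean in a tissue (14218 genes). In limma 3.58.1 (R 4.3.3), 96 arrays of a tissue were fitted with 24 group means and a term at each time for the set of lower-numbered or higher-numbered rats (2 of a group in each), with p-values adjusted by Benjamini-Hochberg over all genes, with a threshold of 0.05. The study dosed 2 rats of a group on each of 2 days, and whether the sets are those days is not given in the sources used here. Intervals are 95%. Named genes were F13a1, the 5 most correlated genes by each measure, up to 4 called members of each list, and Csf1r, Cd163, Mrc1, Pf4, Itga2b, Tgm2 and Csf1. Aif1, Cd68 and Mertk were named after their values were seen. The lists (179 of 217 entries measured) and F13a1 were chosen with earlier results of these data known. The fit was tested on simulated data. Alternatives were the other probe set, a floor on mean signal, renormalization, no set terms, covariates, and arrays left out. The number of arrays limits the precision.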

Additional observations from a re-analysis of the deposited data

Results flagged for a closer look

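In 4 of the 72 groups, 1 rat lay apart from the other 3 by Dixon's test, and chance alone gives about 1 group in 20. The heart of rat 6M68 (temsirolimus with sorafenib, 1 h) had F13a1 at 6.84, where the other 3 had 8.34 to 8.53. The heart of rat 1M10 (both vehicles, sterile water, 6 h) had 9.09, where the others had 7.99 to 8.13. The heart of rat 3M27 (temsirolimus with sterile water, 6 h) had 7.95, where the others had 8.49 to 8.58. The liver of rat 4M41 (temsirolimus with F68/PG/PEG400, 24 h) had 6.22, where the others had 5.87 to 5.91.

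The sorafenib change in the heart with temsirolimus differed between 24 h and 1 h by -2.23. At 24 h it differed between heart and bone marrow of the same rats by -2.32, and between heart and liver by -2.16. Both tissue differences rest mostly on the heart values, and liver F13a1 was low.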

How the results depend on the processing

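Besides single arrays left out, 180 tested values were recomputed under other settings, and 157 kept their direction and their side of the threshold. Of 162 recomputed differences after 1 drug alone, which carry no test, 159 moved by less than the SD between rats, but 16 changed sign, 15 of them within that SD. Of 22 recomputed list counts, 20 stayed within 1.5 times. The sorafenib fall in the heart at 24 h passed under every setting tried. No tested change past the threshold turned its sign. Tested changes short of it turned as follows. On the other probe set, sorafenib with temsirolimus came to -0.031 (bone marrow, 1 h), 0.20 (heart, 1 h) and -0.071 (liver, 6 h), sunitinib to 0.027 (heart, 6 h), 0.094 (heart, 24 h) and -0.13 (liver, 24 h), and temsirolimus with an oral drug to -0.018 (bone marrow, 1 h), -0.030 (heart, 6 h), -0.0026 (liver, 6 h) and 0.14 (liver, 24 h). Temsirolimus with sorafenib only gave -0.019 (bone marrow, 1 h) and -0.12 (heart, 1 h), and with sunitinib only -0.20 (bone marrow, 6 h) and, in liver, -0.023, -0.058 and 0.0064 at the 3 times. Without the arrays that stood apart, sorafenib gave 0.42 (heart, 1 h) and temsirolimus 0.029 (liver, 24 h). With the hepatocyte level as a covariate, sorafenib gave 0.077 (heart, 1 h) and sunitinib 0.025 (heart, 24 h). Sorafenib in the heart at 6 h passed the threshold with that covariate (-0.79, limma adjusted p = 0.0370) and with a floor on mean signal (-0.77, adjusted p = 0.0432, fewer genes tested). Its difference between 24 and 6 h passed without the arrays that stood apart (-1.65). Sorafenib alone on the other probe set in the heart gave -0.21, -0.076 and -1.06 at the 3 times. Without the arrays that stood apart, 1 macrophage gene and 1 interleukin 4 response gene fell at 6 h. The causes were not tested.

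With 1 array left out at a time, sorafenib with temsirolimus ranged over -0.16 to 0.22, -0.0056 to 0.21 and -0.056 to 0.18 in bone marrow at the 3 times, -0.18 to 0.42 and -0.89 to -0.58 in heart at 1 and 6 h, and -0.19 to 0.046 and -0.15 to 0.0015 in liver at 1 and 24 h. In the heart at 6 h the adjusted p lay between 0.0231 and 0.578. Sunitinib in liver at 24 h ranged over -0.029 to 0.12. Temsirolimus with an oral drug ranged over -0.033 to 0.12 (bone marrow, 1 h), -0.032 to 0.27 and -0.0012 to 0.16 (heart, 1 and 6 h), and -0.0048 to 0.12 and -0.12 to 0.028 (liver, 1 and 24 h). The time differences in the heart ranged over -1.65 to -1.34 (24 minus 6 h) and -1.19 to -0.58 (6 minus 1 h). Interleukin 4 response genes that fell numbered 1 to 3 at 24 h and 1 to 4 at 6 h, and macrophage genes 1 to 11 at 6 h. No paired analysis was possible because the labels number rats and not replicates, each rat received 1 treatment, and which rats were dosed on the same day is not given in the sources used here.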
